A study of Mus musculus with 18 samples.

Results

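Mitochondrial ribosomal protein genes were followed across 6 mouse genotypes in spinal cord RNA. Members were genes whose symbol starts with Mrpl or Mrps and a number, pseudogenes left out, whose mean over 18 libraries reached 1 CPM, a count scaled for how many reads a library holds. Of 78 candidate genes, 77 were members, among 54446 genes in the count table and 20635 genes tested. The 78th, Mrpl53, was listed at 0 in every library, and 88.0% of its exon bases in the annotation are shared on the same strand with another gene, Gm42688, and reads in such bases were assigned to neither gene. Just inside the threshold stood Mrpl36, with a mean of 1.81 CPM.

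The genotypes were Q33;TDP-43 (heterozygous for both the hATXN2-Q33 and the hTDP-43 knock-in, also called the Q33 double knock-in), Q22;TDP-43 (heterozygous for both hATXN2-Q22 and hTDP-43, the Q22 double knock-in), TDP-43 (heterozygous hTDP-43 knock-in), Q33 (heterozygous hATXN2-Q33 knock-in), Q22 (heterozygous hATXN2-Q22 knock-in) and NTg (non-transgenic C57BL/6). Q22 and Q33 name the length of the glutamine tract in the human ataxin-2 allele. All mice were untreated and 10 months old, the whole spinal cord is the stated tissue, and each genotype had 3 mice, 1 library each. Sex and litter are not in the labels, and which TDP-43 sequence the knock-in carries is not given there either. Every Q22;TDP-43 and Q33;TDP-43 mouse carries the hTDP-43 allele, so TDP-43 mice and Q22;TDP-43 mice both serve as comparisons for Q33;TDP-43.

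The mitochondrial ribosome is built from proteins encoded in the nucleus, made in the cytosol and imported, on ribosomal RNA that the mitochondrial genome encodes. It translates the few mitochondrial mRNAs, all for subunits of the respiratory chain and ATP synthase. Many of its proteins have bacterial homologues, and others arose in mitochondria. Neurons, with their long axons and high energy use, depend on respiratory chain supply. Ataxin-2 and TDP-43 are RNA-binding proteins linked to amyotrophic lateral sclerosis, and intermediate ataxin-2 glutamine tracts are a known risk factor for that disease in humans.

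Library totals were 16061359 to 30978678 gene-assigned read pairs (median 23807573.5), and members took 0.106% to 0.134% of them, 17051 to 41395 pairs per library. The lowest count of any member in any library was 19, against a floor of 3 counts that corresponds to 0.0968 to 0.187 CPM. Ranges of cell type markers below are for Q33;TDP-43 and NTg only. Maxima of skeletal muscle and dorsal root ganglion markers are over all libraries. The Q33 double knock-in libraries differed from NTg in several measures of composition, and in some of these overlapped other genotypes. Mitochondrial ribosomal RNA (mt-Rnr1 plus mt-Rnr2) made up 28.7%, 26.3% and 23.4% of their counts, against 12.7% to 23.4% in the other 15 libraries. The summed CPM of 6 Hox10 and Hox11 genes, whose expression lies in caudal segments of the cord, was 53.2 to 103 in Q33;TDP-43, 3.92 to 93.0 in Q22;TDP-43, 1.55 to 6.55 in TDP-43, 1.33 to 72.5 in Q33, 1.83 to 44.1 in Q22 and 2.29 to 17.9 in NTg. Mice of the same genotype thus differed widely in this sum, although whole cord is the stated tissue. Whether all libraries hold the same segments was not tested. The 3 pan-neuronal markers (Snap25, Rbfox3, Nefl) summed to 6720 to 7970 CPM in Q33;TDP-43 and to 4370 to 5020 CPM in NTg (1 of 3 called higher), and 3 microglial markers to 79.3 to 98.8 CPM in Q33;TDP-43 and to 123 to 152 CPM in NTg (2 of 3 called lower). Spinal inhibitory neuron markers summed to 613 to 757 CPM in Q33;TDP-43 and to 460 to 512 CPM in NTg (2 of 3 called higher), and endothelial markers to 104 to 154 CPM in Q33;TDP-43 and to 55.1 to 115 CPM in NTg (1 of 3 called higher). Astrocyte markers summed to 5070 to 6640 CPM in Q33;TDP-43 and to 6630 to 6900 CPM in NTg (2 of 3 called lower), and oligodendrocyte markers to 8120 to 10000 CPM in Q33;TDP-43 and to 10900 to 12400 CPM in NTg (1 of 3 called lower). The part of these differences in the results was not tested. Fits with the Hox sum or without the ribosomal RNA are given below as descriptions. Neither measure overlapped between Q33;TDP-43 and NTg, so these fits cannot separate composition from genotype. Motor neuron markers summed to 32.1 to 76.7 CPM in Q33;TDP-43 and to 25.7 to 42.0 CPM in NTg (0 of 4 called by edgeR), and skeletal muscle (at most 3.86 CPM) and dorsal root ganglion markers (at most 0.346 CPM) were near 0. The mouse genes Atxn2 and Tardbp did not pass the test in any comparison (lowest adjusted p 0.62 and 0.38, edgeR), and whether their counts include reads of the human alleles is not given in the sources used here, so they do not check the genotypes. In bulk tissue, more cells of a type and more RNA per cell cannot be told apart.

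By structure, 26 members belong to the small subunit and 50 to the large subunit, where Mrps30 and Mrps18a are counted with the large subunit because their proteins sit there, whatever their names. One member, Mrps36, carries a ribosomal name but is known as a subunit of the oxoglutarate dehydrogenase complex. Bacterial homologues numbered 45 and mitochondria-specific proteins 31. The highest mean levels were those of Mrpl18 (63.4 CPM per kb), Mrpl52 (26.2 CPM per kb), Mrps21 (22.8 CPM per kb), Mrpl41 (19.1 CPM per kb) and Mrpl16 (13.2 CPM per kb). The lowest were those of Mrpl32 (0.997 CPM per kb), Mrpl23 (1.1 CPM per kb), Mrpl33 (1.15 CPM per kb), Mrpl36 (1.55 CPM per kb) and Mrps35 (1.70 CPM per kb). Levels per kb divide by all annotated exon bases, so a long annotation lowers them. In these 5 genes, in that order, the exon bases were 4982, 4883, 7326, 1161 and 8631. Proteins of both subunits stood among the highest and among the lowest.

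The members lie on 17 chromosomes. Their genes were short, with a median exon length of 2255 bases against 4648 bases for 13387 protein-coding genes at or above 1 CPM on average, called expressed coding genes here. Another expressed protein-coding gene started head to head within 1000 bases of 28 members (36.4%), against 13.4% of those protein-coding genes. Head to head here means opposite strands with starts within that distance on either side, so the 2 genes of a pair may overlap. One such pair joins 2 members, Mrpl46 and Mrps11, which overlap and whose starts are 412 bases apart. Mrps12 starts 172 bases from the start of Sars2, the gene of the mitochondrial seryl-tRNA synthetase. Mrpl18 starts 644 bases from the start of Tcp1, and these genes overlap. Same-strand exon overlap affected 7 members and exceeded 20% of exon bases in Mrps34 (37.0%, with Nme3) and Mrps18c (23.2%, with Gm43511), so counts of these 2 are partial.

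RefSeq promoter windows (250 bases before to 50 after the annotated start, build GRCm38.p6) were matched for 68 of the 77 members. The nearest window was taken, with no limit on distance. The RefSeq start lay 17015 bases from the counted gene's start in Mrpl33, 7978 in Mrps24, 3184 in Mrpl35 and 2495 in Mrpl36. Windows are shown for 4 members called higher in Q33;TDP-43 against NTg, those with the smallest p-values among called members that have a window. They are Mrpl18 (chr17:12916042-12916341, minus strand), Mrps22 (chr9:98601630-98601929, minus strand), Mrpl28 (chr17:26123253-26123552, plus strand) and Mrpl50 (chr4:49521034-49521333, minus strand). The RefSeq start lies 253, 20, 18 and 9 bases from the start of the same gene in the count table's annotation for Mrpl18, Mrps22, Mrpl28 and Mrpl50 in that order. For Mrpl18 it lies inside the gene as counted. The whole Mrpl18 window, with its marked letters, thus falls after the start of the counted gene. Capitals mark the letters CCGGAAG, a core bound by ETS factors.
Mrpl18: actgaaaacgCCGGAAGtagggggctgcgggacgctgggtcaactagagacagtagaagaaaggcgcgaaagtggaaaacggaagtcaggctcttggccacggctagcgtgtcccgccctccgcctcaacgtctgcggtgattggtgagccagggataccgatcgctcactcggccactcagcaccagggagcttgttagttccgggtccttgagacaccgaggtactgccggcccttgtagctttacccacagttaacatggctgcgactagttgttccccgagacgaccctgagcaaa
Mrps22: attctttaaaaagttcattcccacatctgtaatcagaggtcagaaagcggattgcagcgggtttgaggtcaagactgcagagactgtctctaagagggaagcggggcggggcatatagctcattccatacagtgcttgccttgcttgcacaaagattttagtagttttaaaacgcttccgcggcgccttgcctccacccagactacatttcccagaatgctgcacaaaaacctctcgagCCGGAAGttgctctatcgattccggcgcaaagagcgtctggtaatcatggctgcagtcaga
Mrpl28: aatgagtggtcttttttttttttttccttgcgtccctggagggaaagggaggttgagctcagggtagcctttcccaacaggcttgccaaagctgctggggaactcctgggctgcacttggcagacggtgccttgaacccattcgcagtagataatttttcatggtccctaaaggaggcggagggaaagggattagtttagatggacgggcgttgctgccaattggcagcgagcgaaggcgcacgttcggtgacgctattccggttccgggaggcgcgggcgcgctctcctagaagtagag
Mrpl50: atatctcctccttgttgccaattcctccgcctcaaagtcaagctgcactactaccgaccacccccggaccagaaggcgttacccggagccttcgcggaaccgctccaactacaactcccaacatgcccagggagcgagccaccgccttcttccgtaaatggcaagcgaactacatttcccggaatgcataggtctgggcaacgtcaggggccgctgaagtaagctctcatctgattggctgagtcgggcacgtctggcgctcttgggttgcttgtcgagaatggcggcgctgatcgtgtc

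These letters, searched on both strands, are present in Mrpl18 and Mrps22 and in neither Mrpl28 nor Mrpl50. Across members, 23 of 68 windows (33.8%) held CCGGAAG, against 8.86% of all 32851 windows and 16.1% of 13548 windows of expressed coding genes. GCATGCG, an NRF1-type core, was in 8 member windows (11.8%), against 3.58% of all windows and 6.01% of expressed ones. AAGATGG, a YY1-type core, was in 13 member windows (19.1%), against 6.34% and 6.76%. The 3 cores share no letters that make one a part of another. The distant windows are among these matches: Mrpl33 held CCGGAAG and GCATGCG, and Mrps24, Mrpl35 and Mrpl36 held AAGATGG. A match is a string of letters, not a known binding site.

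Q33;TDP-43 spinal cords carried more mitochondrial ribosomal protein mRNA than NTg cords when libraries were scaled by TMM, which sets most genes to no difference. The summed level of the 77 members was 1370 ± 178 CPM in Q33;TDP-43 and 1070 ± 40.8 CPM in NTg (SD, n = 3 each). The sums were 1550, 1370 and 1200 CPM in Q33 double knock-in libraries 1, 2 and 3, against 1020, 1100 and 1080 CPM in the NTg libraries, so the groups did not overlap. The median log2 fold change of the members was 0.37, against -0.01 over all genes tested and 0.04 over expressed coding genes, and 73 of 77 were above 0, in a range from -0.14 to 0.83. With edgeR's quasi-likelihood test and Benjamini-Hochberg adjustment over all genes, 13 members rose and none fell at an adjusted p under 0.05. That is 16.9% of the members, where 12.1% of all genes were called, 5.68% higher and 6.39% lower, and of expressed coding genes 8.35% were higher and 7.68% lower. In all, 38 members had an unadjusted p under 0.05. The share of all genes with such a p is not given, here or for the other comparisons, so these counts are descriptions only. DESeq2 called 22 members, including all 13, where it called 16.5% of genes.

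The number of calls moved with single libraries. Without Q33 double knock-in library 1 the call remained for Mrpl18 alone, and without Q33 double knock-in library 3, in which the members were lowest, 22 were called. Leaving out NTg library 1, 2 or 3 gave 5, 8 and 5 calls. For fits without a single library, the share of all genes called is not given, here or below. Such counts therefore do not show whether the members moved more than other genes. The median kept its direction in each of these fits, between 0.29 and 0.47.

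**Figure D1:**
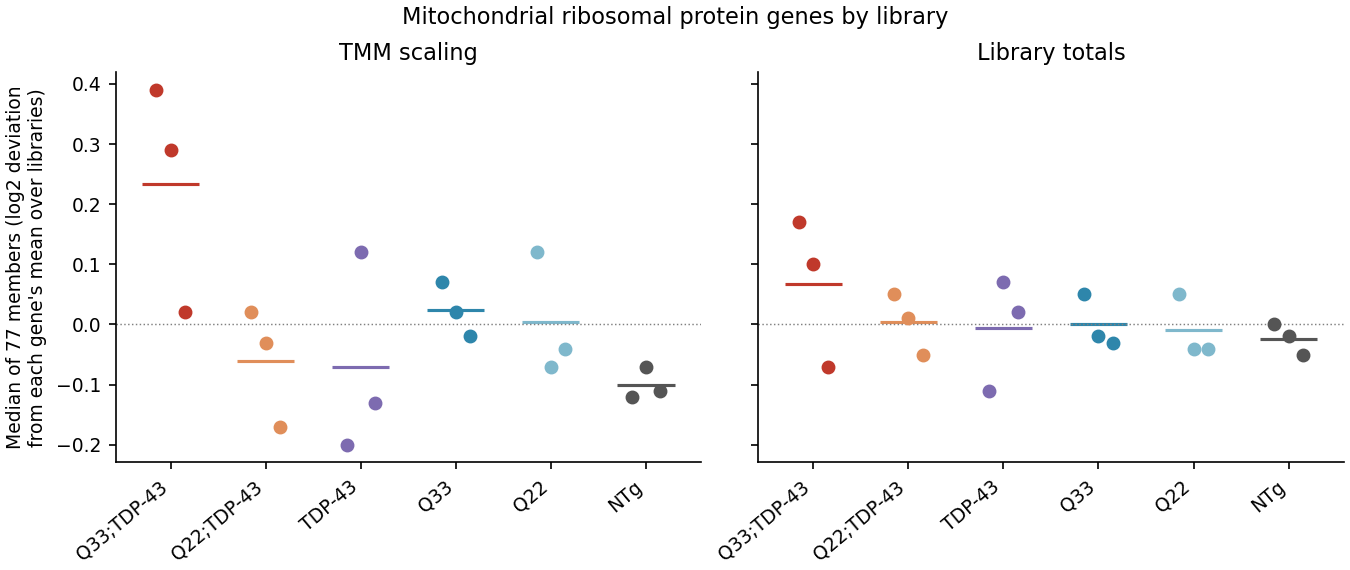
Median over the 77 members of the log2 deviation from each gene's mean over libraries (vertical axis), per library (points) with the mean of 3 mice (bars), by genotype, left with TMM scaling, right with library totals. Q33 double knock-in libraries 1 and 2 stand at 0.39 and 0.29 under TMM, above all other libraries, while Q33 double knock-in library 3 stands at 0.02, within their range.

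The 3 Q33;TDP-43 mice were not alike, as the plot of medians by library shows. Of the 77 members, 73, 72 and 44 were above their own median over libraries in Q33 double knock-in libraries 1, 2 and 3, against 17, 26 and 23 in the NTg libraries. The median deviation was 0.39, 0.29 and 0.02 in Q33;TDP-43 and -0.12, -0.07 and -0.11 in NTg. The next highest libraries were TDP-43 library 2 and Q22 library 1, both at 0.12. The share of mitochondrial ribosomal RNA was also highest in Q33 double knock-in library 1 and lowest of the 3 in library 3. With that RNA left out before TMM scaling, 14 members were called, including all 13, with a median of 0.37. The share of all genes called in that fit is not given, so its count is a description only. Outside Q33;TDP-43, the highest Hox10 and Hox11 sums were those of Q22 double knock-in library 1, Q33 libraries 2 and 3 and Q22 library 3. Their sums were 93.0, 72.5, 61.9 and 44.1 CPM, and their member medians 0.02, 0.02, -0.02 and -0.04. No NTg or TDP-43 library had a sum above 17.9 CPM, and the part of cord level was not tested. With the log2 Hox sum as a covariate, an analysis added after the data were seen, the members' median log2 fold change was 0.40 and 7 were called, where 4.19% of genes were. Hox sums of Q33;TDP-43 and NTg did not overlap, so this fit cannot separate cord level from genotype.

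**Figure D2:**
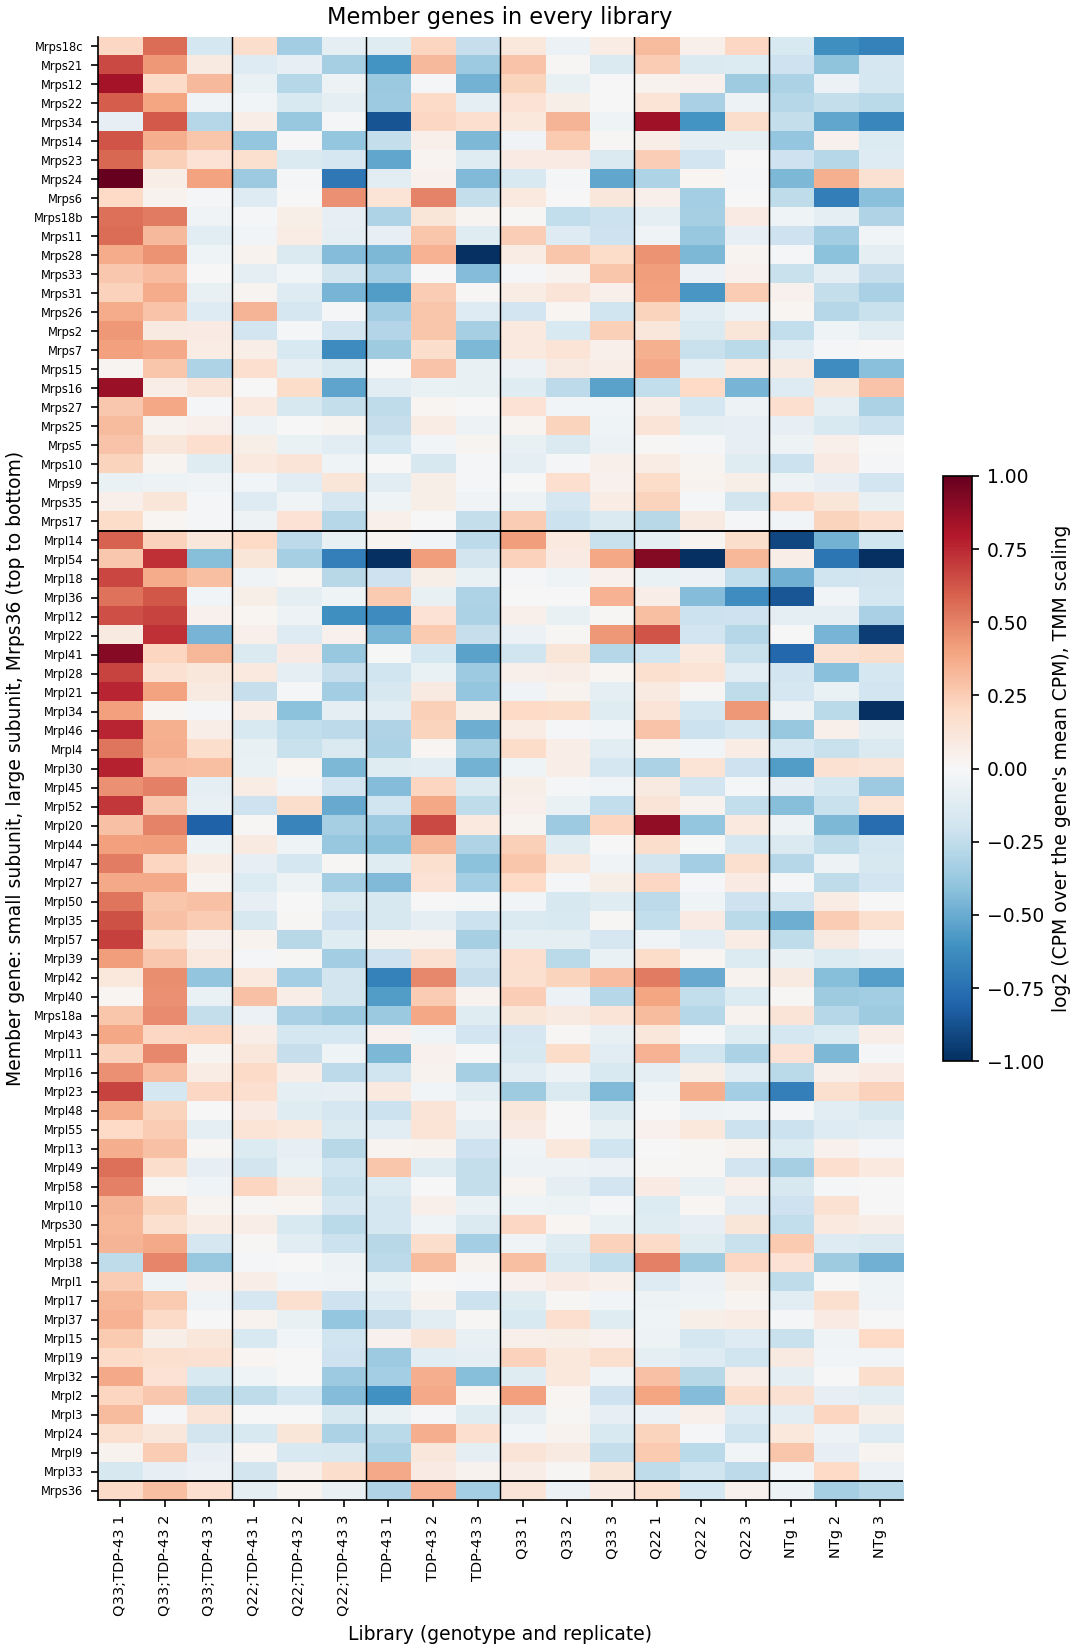
Each row is a member and each column a library, and colour gives log2 of CPM over the gene's mean CPM, with TMM scaling, in small subunit members, large subunit members and Mrps36 from top to bottom. Red, above the gene's mean, fills most rows of Q33 double knock-in libraries 1 and 2, and Q33 double knock-in library 3 is paler.

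In the small subunit, 6 of 26 members rose in Q33;TDP-43 against NTg, with a median log2 fold change of 0.37. Mrps12 (chr7:28739641-28741820), the homologue of a bacterial protein of the decoding centre, had 8.63, 5.5 and 6.06 CPM in Q33;TDP-43 against 3.87, 4.64 and 4.27 CPM in NTg, and its log2 fold change was 0.66 ± 0.19 (SE), with adjusted p = 0.0292 by edgeR. All 3 Q33 double knock-in values lay above all NTg values, with library 1 the highest. Mrps14 (chr1:160195215-160202170), another bacterial homologue, had 25.4, 21.1 and 20.0 CPM in Q33;TDP-43 against 12.6, 17 and 14.9 CPM in NTg (0.58 ± 0.15, adjusted p = 0.0202, edgeR). These groups were also apart. Mrps22 (chr9:98588730-98601660), a mitochondria-specific protein whose loss causes a mitochondrial disease in humans, had 53.7, 46.6 and 34.5 CPM in Q33;TDP-43 against 29.0, 29.9 and 29.4 CPM in NTg (0.61 ± 0.15, adjusted p = 0.0143, edgeR). The NTg values were within 1 CPM of each other, and Q33 double knock-in library 3 was the nearest to them.

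Mrps21 (chr3:95862634-95871519), Mrps23 (chr11:88204388-88211507) and Mrps18c (chr5:100798627-100804471) completed the 6. Mrps21, a bacterial homologue, averaged 22.4 ± 4.35 CPM in Q33;TDP-43 and 14.1 ± 1.18 CPM in NTg, and Mrps23, specific to mitochondria, 9.59 ± 1.53 CPM in Q33;TDP-43 and 6.61 ± 0.364 CPM in NTg (SD, n = 3 each). Their log2 fold changes were 0.67 ± 0.20 and 0.54 ± 0.16 (SE). Mrps18c, 1 of the 3 mammalian relatives of bacterial S18, had 3.68, 4.70 and 2.83 CPM in Q33;TDP-43 against 2.88, 2.08 and 2 CPM in NTg (0.68 ± 0.22, adjusted p = 0.0492, edgeR), and its groups overlapped through Q33 double knock-in library 3 and NTg library 1. Mrps16, a disease gene in humans, did not pass (12.6, 7.23 and 7.52 CPM in Q33;TDP-43 against 6.29, 7.51 and 8.41 CPM in NTg, adjusted p = 0.398, edgeR). Mrps34, another, had 4.01, 6.51 and 3.49 CPM in Q33;TDP-43 against 3.60, 2.97 and 2.71 CPM in NTg (adjusted p = 0.243, edgeR).

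In the large subunit, 7 of 50 members rose, with a median log2 fold change of 0.36. Mrpl18 (chr17:12911349-12916345), a bacterial homologue of the central protuberance and the member with the highest level per kb, had the smallest p. It had 141, 114 and 109 CPM in Q33;TDP-43 against 63.4, 77.3 and 78.1 CPM in NTg, and its log2 fold change was 0.74 ± 0.11 (SE), with adjusted p = 0.000723 by edgeR. In the other genotypes it had 86.7, 89.4 and 73.2 CPM (Q22;TDP-43), 76.5, 92.1 and 84.7 CPM (TDP-43), 87.5, 85.8 and 91.4 CPM (Q33) and 84.7, 84.9 and 74.5 CPM (Q22). Every Q33 double knock-in value exceeded every value of the other 15 libraries, and the call stood whichever Q33;TDP-43 or NTg library was left out (0.62 to 0.81).

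Mrpl4 (chr9:21002738-21008839), whose bacterial counterpart lines the exit tunnel, had 18, 16 and 14.1 CPM in Q33;TDP-43 against 11, 10.7 and 11.3 CPM in NTg (0.55 ± 0.12, adjusted p = 0.00951, edgeR). Mrpl50 (chr4:49512596-49521093), specific to mitochondria, had 26.0, 21.7 and 21.9 CPM in Q33;TDP-43 against 15.6, 18.9 and 17.9 CPM in NTg (0.41 ± 0.11, adjusted p = 0.0194, edgeR). Neither gene's groups overlapped, and Mrpl50 was below 19 CPM in all 15 libraries outside Q33;TDP-43. Mrpl28 (chr17:26123520-26126613) averaged 16.4 ± 3.73 CPM in Q33;TDP-43 and 10.8 ± 0.994 CPM in NTg, and Mrpl21 (chr19:3282901-3292837) 19.4 ± 4.49 CPM in Q33;TDP-43 and 12.9 ± 0.591 CPM in NTg (SD, n = 3 each). Both are bacterial homologues, with log2 fold changes of 0.59 ± 0.15 and 0.59 ± 0.16 (SE).

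Mrpl14 (chr17:45686322-45698495), at the interface between the subunits, showed the highest log2 fold change of all members, 0.83 ± 0.23 (SE), with adjusted p = 0.0243 by edgeR, at a low level: 4.24, 3.29 and 3.05 CPM in Q33;TDP-43 against 1.5, 2.03 and 2.45 CPM in NTg. Mrpl12 (chr11:120484613-120489065), the stalk protein that recruits translation factors, had 19.7, 20.2 and 13 CPM in Q33;TDP-43 against 11.8, 11.8 and 10.1 CPM in NTg (0.65 ± 0.21, adjusted p = 0.0495, edgeR). Its partners in the stalk did not pass: Mrpl10 had a log2 fold change of 0.21 ± 0.11 and Mrpl11 one of 0.34 ± 0.20 (SE), with adjusted p 0.222 and 0.281 by edgeR. Around the exit, Mrpl23 had 8.55, 4.74 and 6.19 CPM in Q33;TDP-43 against 3.34, 5.99 and 6.27 CPM in NTg, and Mrpl45, which ties the ribosome to the inner membrane, 15.5, 15.9 and 10.5 CPM in the Q33 double knock-in against 10.6, 9.96 and 8.72 CPM in NTg. Their log2 fold changes were 0.33 ± 0.24 and 0.51 ± 0.17 (SE), with adjusted p 0.39 and 0.0515 by edgeR, and DESeq2 called Mrpl45 (adjusted p = 0.0215).

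Among the other members with a known role, Mrpl44 (a disease gene in humans) had a log2 fold change of 0.46, Mrpl58 (a peptidyl-tRNA hydrolase built into the ribosome) 0.24, Mrps30 0.21, Mrps18a 0.36 and Mrps36 0.43 in Q33;TDP-43 against NTg, and none passed the test. Of the members with the highest levels per kb that were not called, Mrpl52 had 0.49, Mrpl41 0.61 and Mrpl16 0.33, and of the lowest, Mrpl36 had 0.73 and Mrpl32 0.11, all uncalled. A log2 fold change below 0 was seen in 4 members: Mrpl33 (-0.14), Mrps17 (-0.06), Mrps35 (-0.03) and Mrpl9 (-0.01). Mrpl33, a bacterial homologue, had 7.58, 8 and 8.14 CPM in Q33;TDP-43 against 8.28, 9.70 and 8.14 CPM in NTg (adjusted p = 0.517, edgeR). In all, 33 members were above NTg in every Q33 double knock-in library, where 14.4% of all genes were, and Mrpl33 was below NTg, by a margin below the rounding of these values, where 15.8% of genes were.

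**Figure D3:**
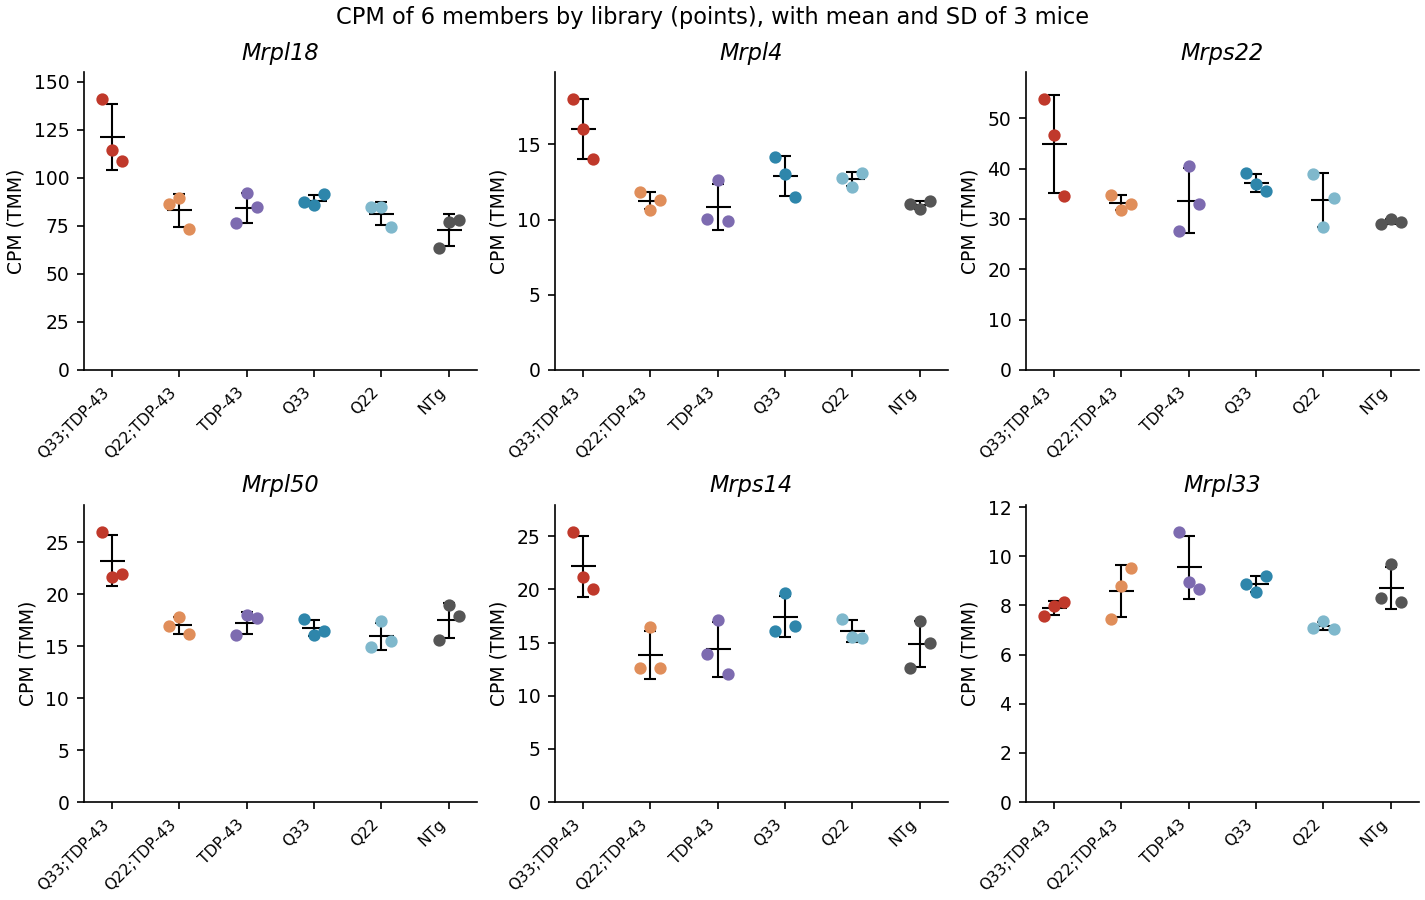
CPM with TMM scaling (vertical axes, from 0) of 6 members in each library (points), with the mean and SD of 3 mice (bars), by genotype. Mrpl18, Mrpl4, Mrpl50 and Mrps14 are higher in every Q33 double knock-in library than in any NTg library, while Mrpl33, between 7.58 and 8.14 CPM in Q33;TDP-43, is not.

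Bacterial homologues and mitochondria-specific proteins had similar medians, 0.34 and 0.37, with 10 of 45 and 3 of 31 called. Members with a head-to-head partner had a median of 0.45 (6 of 28 called) and the others 0.35 (7 of 49 called), and the 26 partners that are not members had a median of 0.20, with 5 called, all higher. Members whose promoter window held CCGGAAG had a median of 0.42 (7 of 23 called), and those with a window without it 0.34 (5 of 45 called). For GCATGCG the medians were 0.20 with the letters (0 of 8 called by edgeR, 2 with an unadjusted p under 0.05) and 0.38 without, and for AAGATGG 0.37 with (1 of 13 called) and 0.37 without (11 of 55 called). The differences between these groups of members were not tested.

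The size of the rise depended on the scaling. Under library totals the median of all genes in Q33;TDP-43 against NTg was -0.25 instead of -0.01, and that of the members 0.11. Relative to all genes the members' median was 0.38 higher under TMM and 0.37 higher under library totals. Members called under library totals were Mrpl18 (0.49, adjusted p = 0.00258, edgeR) and Mrps22 (0.36, adjusted p 0.05 after rounding and just under the threshold), 2.60% of the members, where 1.01% of genes were called higher and 19.1% lower, 20.1% in all. None was called lower. Summed over members, the level under library totals was 1220 ± 107 CPM in Q33;TDP-43 and 1120 ± 13.1 CPM in NTg (SD, n = 3 each), and the Q33 double knock-in libraries, at 1340, 1190 and 1130 CPM, still lay above the NTg libraries, at 1110, 1140 and 1120 CPM, except for library 3. With mitochondrial ribosomal RNA taken out of the totals, an alternative added after the data were seen, 9 of the 13 were called and the median was 0.28, against -0.10 for all genes. For this fit too the share of all genes called is not given, so the count is a description only.

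**Figure D4:**
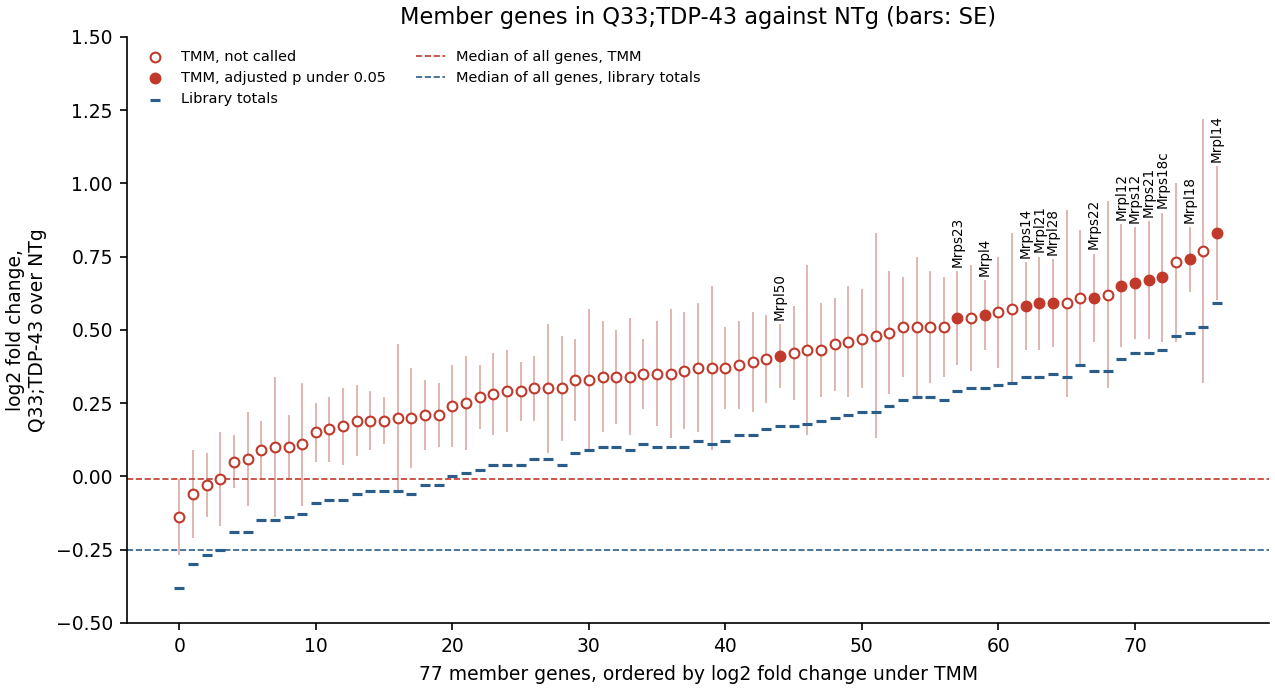
log2 fold change of Q33;TDP-43 over NTg (vertical axis) for the 77 members ordered by size, with TMM scaling (circles, SE bars, filled where the adjusted p was under 0.05) and with library totals (dashes), and broken lines are the medians of all genes, -0.01 and -0.25. All but 4 circles lie above 0, and every dash lies below its circle.

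Exon length went with the fold change, among members and among other genes alike. Members with at most 1500 exon bases had a median log2 fold change of 0.57 (6 of 21 called), those between 1500 and 3000 bases 0.38 (5 of 27 called), and those over 3000 bases 0.21 (2 of 29 called). Of expressed coding genes, the same classes had medians of 0.34, 0.17 and 0.00, with 10.9%, 11.9% and 7.23% called higher and 1.76%, 3.38% and 9.24% called lower, while all member calls were higher. Members were thus above coding genes of their own length class in each class, also under library totals (0.32, 0.14 and -0.03 for members against 0.10, -0.07 and -0.24 for coding genes). The 13 called members range from Mrps21 with 739 exon bases to Mrps22 with 3991. What sets the relation with length was not tested. Per the labels' protocols, RNA integrity numbers were above 7.5 for every sample.

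**Figure D5:**
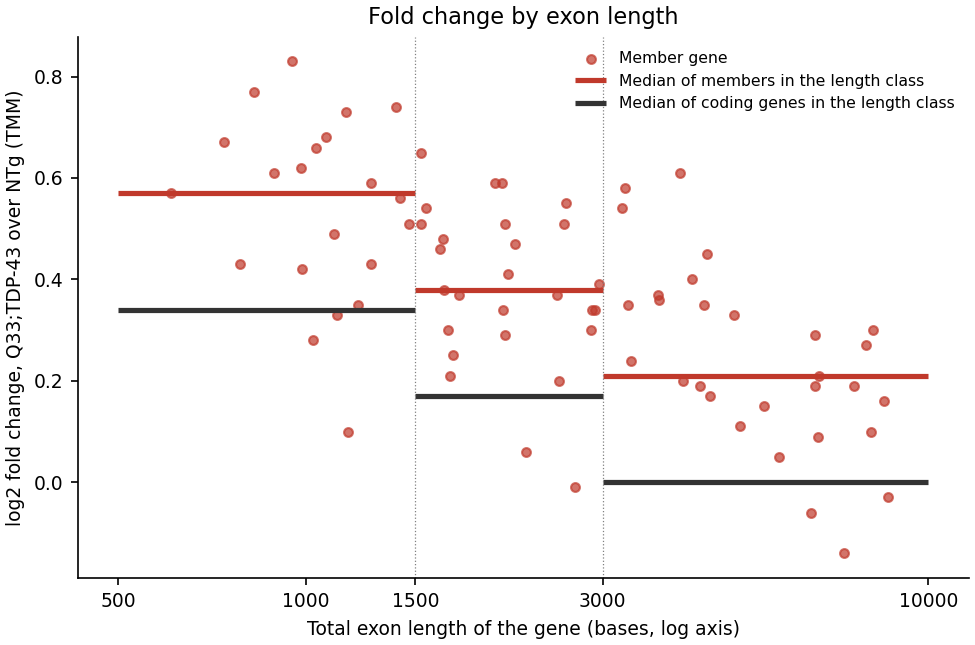
log2 fold change of Q33;TDP-43 over NTg with TMM scaling (vertical axis) against total exon length in bases (log axis), one point per member, and bars are medians in 3 length classes, red for members and black for expressed coding genes. Both sets of bars are lower in the longer classes: 0.57, 0.38 and 0.21 for members, 0.34, 0.17 and 0.00 for coding genes.

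Against each other genotype that carries hTDP-43 or hATXN2-Q33, the members' median was also higher in Q33;TDP-43. These comparisons share the Q33 double knock-in libraries with the one against NTg. Against Q22;TDP-43, which differs in tract length, 13 members rose and none fell (12.8% of genes called, 6.67% higher and 6.17% lower), with a median of 0.32. The smallest adjusted p-values by edgeR were those of Mrpl18 (log2 fold change 0.55 ± 0.11, SE, p 0.00464), Mrps14 (0.68 ± 0.15, p 0.00853), Mrpl50 (0.45 ± 0.11, p 0.0114), Mrpl4 (0.51 ± 0.12, p 0.0121) and Mrpl21 (0.64 ± 0.16, p 0.0135). Mrps14 had 25.4, 21.1 and 20.0 CPM in Q33;TDP-43 against 12.6, 16.5 and 12.6 CPM in Q22;TDP-43, with no overlap. In all, 31 of the 77 members, with all 13 called ones among them, lay above the Q22 double knock-in in this way, where 14.8% of all genes did. Under library totals 3 members were called, Mrps14 (0.44), Mrpl18 (0.31) and Mrpl21 (0.40), where 1.43% of genes were called higher and 17.6% lower. Among the other 8 calls, Mrps24, a bacterial homologue, had the highest fold change of this comparison (0.89 ± 0.25, SE), with 17.6, 8.92 and 11.3 CPM in the Q33 double knock-in against 6.63, 8.46 and 5.21 CPM in the Q22 double knock-in. Of its exon bases 15.4% are shared with Urgcp. Mrpl46 rose by 0.65 ± 0.19 (SE) in this comparison, and Mrpl43, specific to mitochondria, by 0.36 ± 0.12. Without Q33 double knock-in library 1, or without Q22 double knock-in library 3, Mrpl18 alone was called. Without Q22 double knock-in library 2 there were 6 calls and without Q33 double knock-in library 3 there were 22.

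Against TDP-43, 15 members rose and none fell (12.6% of genes called, 5.98% higher and 6.66% lower), with a median of 0.30. Smallest by adjusted p (edgeR) were Mrpl18 (log2 fold change 0.52 ± 0.11, SE, p 0.00694), Mrpl4 (0.56 ± 0.12, p 0.00821), Mrps14 (0.63 ± 0.15, p 0.0139), Mrpl50 (0.43 ± 0.11, p 0.015) and Mrps12 (0.74 ± 0.19, p 0.0163). Mrpl4 had 18, 16 and 14.1 CPM in Q33;TDP-43 against 10.0, 12.6 and 9.90 CPM in TDP-43, with no overlap. In all, 19 of the 77 members lay above TDP-43 in every Q33 double knock-in library, 13 of them among the 15 called, where 13.1% of all genes did. Under library totals 4 were called higher (Mrps14, Mrps12, Mrpl4 and Mrpl18) and 1 lower, Mrpl33, at -0.50 (adjusted p = 0.022, edgeR), where 1.24% of genes were called higher and 18.5% lower. Mrpl41, a mitochondria-specific protein with one of the highest levels per kb, rose by 0.74 ± 0.23 (SE) on the TMM scale, with 31.9, 19.7 and 21.3 CPM in the Q33 double knock-in against 16.9, 15 and 11.7 CPM in TDP-43. Mrps5, a bacterial homologue that varied little between mice, rose by 0.25 ± 0.08 (SE), the least of the 15. Mrpl33 had 7.58, 8 and 8.14 CPM in Q33;TDP-43 against 11, 8.94 and 8.68 CPM in TDP-43 on the TMM scale (log2 fold change -0.27). Without Q33 double knock-in library 1 none was called and without library 3 there were 23 calls. Without TDP-43 library 1, 2 or 3 there were 4, 26 and 3.

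Against Q33 the one call was Mrpl50, where 0.892% of genes were called. It had 26.0, 21.7 and 21.9 CPM in Q33;TDP-43 against 17.6, 16.1 and 16.5 CPM in Q33 (0.47 ± 0.11, adjusted p = 0.0449, edgeR). Of the 6 libraries of these 2 groups, left out in turn, it was lost without each of the 5 other than Q33 double knock-in library 3, without which 4 were called. It was also lost under library totals (0.33, adjusted p = 0.108). Mrpl18 came next (0.46 ± 0.11, adjusted p = 0.0546, edgeR). The members' median was 0.21, 22 had an unadjusted p under 0.05, and DESeq2 called 7, where it called 6.64% of genes.

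In Q22;TDP-43, TDP-43, Q33 and Q22 against NTg, edgeR called no member. The share of all genes called was 0.00969% in Q22;TDP-43 (0.00485% higher and 0.00485% lower) and 0.0% in TDP-43, in Q33 and in Q22, so few genes of any kind passed, and DESeq2 called no member either. The medians were 0.01 in Q22;TDP-43 (1 member with an unadjusted p under 0.05), 0.03 in TDP-43 (1 member), 0.15 in Q33 (6 members) and 0.10 in Q22 (9 members). The Q33 medians relative to all genes were 0.15 under both scalings, and 25 members lay above NTg in every Q33 library, where 7.78% of genes did. The same held for 7 members in Q22 (4.93% of genes), 3 in Q22;TDP-43 (3.20%) and 1 in TDP-43 (3.64%), and at most 2 members lay below NTg in this way in any of the 4.

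Mrps6, the homologue of a small subunit protein that pairs with S18 in bacteria, had the smallest p in 2 of these comparisons. It had 6.47, 7.08 and 9.72 CPM in Q22;TDP-43, 7.78, 9.99 and 6.00 CPM in TDP-43, 7.57, 7.06 and 7.65 CPM in Q33 and 5.94, 4.38 and 5.29 CPM in NTg. The values of each knock-in genotype named lay above those of NTg. Its log2 fold changes were 0.57 in Q22;TDP-43, 0.60 in TDP-43 and 0.51 in Q33 (adjusted p 1.0, 0.997 and 0.658, edgeR), beside 0.51 in Q33;TDP-43 (adjusted p = 0.0856, edgeR). All 4 share the NTg libraries, and 19.9% of its exon bases are shared with other genes. Mrpl14 followed in Q22;TDP-43 (0.47) and came first in Q33 (0.62), and Mrps15 followed in TDP-43 (0.36). In Q22 the smallest p belonged to Mrps18c (0.65, adjusted p = 0.908, edgeR) and Mrpl14 (0.55).

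Q33 against Q22, the 2 tract lengths without hTDP-43, gave no call by edgeR or DESeq2 (0.0% of genes by edgeR), a median of 0.01, and 2 members with an unadjusted p under 0.05. These were Mrpl19, a bacterial homologue with 16.3, 15 and 15.6 CPM in Q33 against 13.1, 12.7 and 12.1 CPM in Q22 (log2 fold change 0.31), and Mrpl33, with 8.86, 8.54 and 9.18 CPM in Q33 against 7.08, 7.36 and 7.04 CPM in Q22 (0.31). Both were apart without overlap, and both had an adjusted p of 1.0. In all, 4 of the 77 members lay above Q22 in every Q33 library and 0 lay below, where 3.82% and 4.13% of all genes did.

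The interaction of hATXN2-Q33 with hTDP-43 asks whether the pair differs from the sum of the single alleles on the log scale. No member passed by edgeR or DESeq2 (0.0% of genes by edgeR), 11 had an unadjusted p under 0.05, and the median was 0.22, against -0.02 for all genes. The smallest p-values were those of Mrpl50 (0.49 ± 0.15, adjusted p = 0.245, edgeR) and Mrpl35, a bacterial homologue (0.66 ± 0.22, adjusted p = 0.255, edgeR). Mrpl35 had 66.0, 52.1 and 50.7 CPM in Q33;TDP-43, 38.0, 39.8 and 36.6 CPM in TDP-43, 38.5, 38.3 and 42.8 CPM in Q33 and 30.3, 50.6 and 47.5 CPM in NTg. All Q33;TDP-43 values lay above those of the other 3 genotypes, and NTg library 1 was the lowest of these libraries.

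Over all 6 genotypes, 3 members differed (4.16% of genes did): Mrpl18 (adjusted p = 0.00883, edgeR), Mrpl50 (0.032) and Mrpl4 (0.0409). The next were Mrps14 (0.0531), Mrpl21 (0.0783), Mrpl28 (0.099), Mrps12 (0.105) and Mrpl19 (0.11). DESeq2 called 14, where it called 13.8% of genes, and without single libraries the count was 0 (without Q33 double knock-in library 1) to 6 (without TDP-43 library 2). It was 1, Mrpl18, without NTg library 3, Q22 library 1 or 3, Q33 library 2 or Q33 double knock-in library 2. Q33;TDP-43 had the highest mean of the 6 genotypes in 62 of 77 members, where it did so in 30.0% of all genes, and the lowest in none of them, where 32.8% of genes had theirs there. NTg had the lowest mean in 31 members, Q22;TDP-43 in 19 and TDP-43 in 18 (17.1%, 14.9% and 14.2% of all genes). Summed member levels of the other genotypes were 1080 ± 74.4 CPM in Q22;TDP-43, 1090 ± 125 CPM in TDP-43, 1150 ± 26.3 CPM in Q33 and 1130 ± 68.7 CPM in Q22 (SD, n = 3 each), within each other's spread.

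Genes that work with the mitochondrial ribosome are given by lists chosen for their function, and the counts are for Q33;TDP-43 against NTg, TMM scaling. Of 5 mitochondrial ribosome proteins without the Mrp name 1 rose, Aurkaip1, a small subunit protein (39.3 ± 7.66 CPM in Q33;TDP-43 and 24.9 ± 1.72 CPM in NTg, SD, n = 3 each, log2 fold change 0.66, adjusted p = 0.0211, edgeR). Dap3, the small subunit GTP-binding protein, had 0.32 (adjusted p = 0.0787, edgeR). Of 26 assembly and ribosomal RNA maturation factors 1 rose, Grsf1, an RNA-granule protein (0.42, adjusted p = 0.0323, edgeR), and the list's median was 0.12. Gtpbp10, an assembly GTPase, had -0.35 (adjusted p = 0.0814, edgeR).

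Of 19 translation factors and mRNA-binding proteins 3 rose, with a median of 0.22: Lrpprc, which stabilises mitochondrial mRNAs (0.24, adjusted p = 0.0259, edgeR), Mrrf, the ribosome recycling factor (0.43, 0.041), and Gfm1, an elongation factor (0.38, 0.0411). Of 19 aminoacyl-tRNA synthetases 1 rose, Gars, which also serves the cytosol (0.52, adjusted p = 0.0146, edgeR), and the median was 0.06. Of 11 transcription and genome maintenance genes 1 rose, Tfam, which packages mitochondrial DNA (0.28, adjusted p = 0.0391, edgeR). No gene of these lists fell under TMM. Under library totals none rose, and 1 fell in each list other than that of ribosome proteins without the Mrp name.

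Products and partners of the same machinery moved to different degrees. Of 75 nuclear genes of oxidative phosphorylation 44 rose and none fell, with a median of 0.59 (18 rose under library totals), led by Atp5l (0.91, adjusted p = 0.00203, edgeR). Of 80 cytosolic ribosomal protein genes 18 rose, with a median of 0.41 (3 under library totals), led by Rpsa (0.73, adjusted p = 0.0043, edgeR). Of 13 mRNAs encoded in mitochondria 1 rose, mt-Nd6 (0.34, adjusted p = 0.0313, edgeR), with a median of 0.40. The large ribosomal RNA mt-Rnr2 had a log2 fold change of 0.81 (adjusted p = 0.0216, edgeR) and the small one, mt-Rnr1, 0.58 (0.504). Ribosomal RNA was depleted before library preparation, and how completely was not tested. The members' share of calls, 16.9%, stood between those of the synthetases (5.26%) and of oxidative phosphorylation (58.7%). The differences between lists were not tested.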

How the data were processed

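Spinal cord RNA, from whole cord as stated, was sequenced as stranded, ribosomal RNA-depleted libraries from 18 mice, 3 per genotype. The authors deposited read-pair counts per gene for each library, made with featureCounts 1.6.1 per the file headers; Trim Galore 0.4.1 and TopHat2 are named in the submitters' processing notes. The deposited exon length per gene was used for levels per kb, lengths of overlap and length classes. Gene symbols were matched for 54409 of 54446 gene IDs (99.93%).

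From the counts, edgeR 4.0.16 (R 4.3.3, limma 3.58.1) fitted 1 quasi-likelihood model to all 6 genotypes, with TMM factors, edgeR's filter on low counts (20635 genes) and Benjamini-Hochberg adjustment over all genes; adjusted p under 0.05 was called. CPM used TMM-scaled totals. Summaries and figures used Python 3.11.15. The script was tested on simulated counts. Alternatives were library totals, RLE factors, mitochondrial ribosomal RNA left out, no filter, only the groups compared, DESeq2 1.42.0 and each library left out. Library totals without that RNA and a Hox covariate were added after seeing the data. The members and lists were chosen with earlier results of these data known. Replicate numbers follow accession order and only name libraries. The labels give an animal number per library, and p-values measure the spread between these mice. Floors of 3 counts cover counting error only.

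Named with values were the 8 members with the smallest p over the 6 genotypes, up to 10 called members with the largest rises against NTg, 5 called (or else 2) with the smallest p in each other comparison, the 5 highest and 5 lowest per kb, those at the level threshold, members with a listed role, and up to 3 genes of each related list. Other members were named after their values were seen.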

Additional observations from a re-analysis of the deposited data

How the results depend on the processing

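No paired analysis was possible because the labels give no replicate number shared between genotypes. No named member that was called changed sign under the alternatives run. The share of all genes called by the same fit stands in parentheses after each count. DESeq2 called 22 members in Q33;TDP-43 against NTg (16.5%), 7 against Q33 (6.64%) and 14 over the 6 genotypes (13.8%). With library totals there were 2 calls against NTg (20.1%), 3 against Q22;TDP-43 (1.43% higher and 17.6% lower), 5 against TDP-43 (19.8%), 0 against Q33 (1.92%) and 1 over the 6 genotypes (7.48%), and the medians were 0.11, 0.09, 0.07 and 0.07 against NTg, Q22;TDP-43, TDP-43 and Q33. Without a filter there was 1 call in Q33 against NTg (1.04%), Mrpl42 at 0.51, with 8 in Q33;TDP-43 against Q33 (2.92%), 4 in the interaction (1.36%), namely Mrpl35, Mrps24, Mrpl30 and Mrpl41, and 15 over the 6 genotypes (7.68%). With only the groups compared, Q33;TDP-43 had 6 calls against NTg (8.11%), 4 against Q22;TDP-43 (7.28%), 0 against TDP-43 (1.33%) and 0 against Q33 (0.506%). Library totals without mitochondrial ribosomal RNA gave 6 calls against Q22;TDP-43 (12.7%), 0 against Q33 (0.78%) and 1 over the 6 genotypes (3.94%). The Hox covariate gave 7 calls against NTg (4.19%), 2 against TDP-43 (1.71%), 0 against Q33 (0.419%) and 0 over the 6 genotypes (0.536%). RLE factors and leaving the ribosomal RNA out moved no count by over 1.5 times. In the latter fit TMM factors were set anew on the remaining genes, which offsets the removal, so it says little about the part of that RNA. The cause of these changes was not tested.

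Leaving out single libraries gave 1 to 22 calls in Q33;TDP-43 against NTg (median 0.29 to 0.47), 1 to 22 against Q22;TDP-43 (0.23 to 0.45), 0 to 26 against TDP-43 (0.25 to 0.44), 0 to 4 against Q33 (0.13 to 0.31) and 0 to 6 over the 6 genotypes. The medians ran from -0.03 to 0.08 in Q22;TDP-43, -0.09 to 0.07 in TDP-43, 0.11 to 0.16 in Q33 and 0.05 to 0.16 in Q22 against NTg, from -0.03 to 0.06 in Q33 against Q22 and from 0.12 to 0.32 in the interaction. With 3 mice a genotype, members near the threshold move in and out of the calls. The share of all genes called in the fits without a single library is not given.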

Other observations

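Members differed in how much they varied between mice of 1 genotype. The pooled within-genotype SD on the log2 scale had a median of 0.20. It was lowest in Mrps5 (0.07), Mrps9 (0.08), Mrpl19 (0.09), Mrpl1 (0.10) and Mrpl50 (0.11), and highest in Mrpl54 (0.65), Mrpl20 (0.49), Mrps34 (0.45), Mrpl22 (0.40) and Mrpl42 (0.40). These genes were picked after their values were seen. The log2 deviation of Mrpl54, a mitochondria-specific large subunit protein, from its mean was 0.39, 0.83 and -0.29 in Q33;TDP-43, -1.08, 0.53 and -0.06 in TDP-43, 1.02, -0.94 and 0.44 in Q22 and 0.19, -0.58 and -0.98 in NTg. Mice of 1 genotype thus differed by over 1 log2 unit in each of these groups. They were within 1 log2 unit of each other in Q33 (0.34, 0.20 and 0.49) and in Q22;TDP-43 (0.24, -0.20 and -0.54). The level of Mrpl54 was low, with a mean of 2.67 CPM and a lowest count of 19. Mrpl54 had a log2 fold change of 0.77 ± 0.45 (SE) in Q33;TDP-43 against NTg, among the highest of the members, and did not pass the test (adjusted p = 0.276, edgeR).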
